A study of Mus musculus with 12 samples.

Results

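The comparison described here sets AtT-20 cells that express Pax7-465, a C-terminal deletion of Pax7, against AtT-20 cells that express the Pax7 Q-GL- isoform. Its members are 4 of the 12 RNA-Seq libraries of the series, 2 of Pax7-465 cells and 2 of Pax7 Q-GL- cells, chosen by their labels. The measurements are FPKM values per gene (fragments scaled to transcript length and library size), and 12021 of 16385 genes, those with at least 1 FPKM in at least 2 of the 4 libraries, were tested.

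AtT-20 is a mouse pituitary tumor line that serves as a model of corticotropes. The cells of each group carry an introduced factor, and the study's methods describe Pax7 constructs with Flag tags at both ends, expressed from a retroviral CMV promoter in drug-selected pools of many colonies, so the groups are pools and not single clones. A further Pax7 group, labelled NoTag, entered only 1 alternative fit. Pax7-465 ends at residue 465 and lacks the C-terminal part that contains the OAR motif. Pax7 Q-GL- lacks both the glutamine (Q) and the glycine-leucine pair (GL) that alternative splicing can add to the paired domain, Pax7 Q-GL+ has the pair only, Pax7 Q+GL+ has both, and Pax3 is the closest relative of Pax7. The study's supplement describes its deletion mutants as built on a Q+GL- form, which was not analysed here under that name, so Pax7-465 may differ from Pax7 Q-GL- at the C-terminus and at the glutamine, and these differences cannot be told apart. The study's methods call the RNA samples biological replicates, but neither they nor the labels say whether the 2 libraries of a group came from separate infections, and the error behind each p-value is the spread between libraries of a group.

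Pax7 is a paired and homeodomain transcription factor that works as a pioneer: it binds sites in closed chromatin that later open. In the pituitary it acts with Tpit, the product of Tbx19, to set the melanotrope fate apart from the corticotrope fate. Both cell types make the prohormone POMC. Melanotropes cleave it further with prohormone convertase 2, the product of Pcsk2, and so release alpha-MSH in place of ACTH.

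The introduced and lineage factors were read first. Pax7 was at 109 and 113 FPKM in Pax7-465 cells, against 95.3 and 93.9 FPKM in Pax7 Q-GL- cells, and at 0.159 and 0.161 FPKM in Pax3 cells, so nearly all of it was in cells given a Pax7 construct. The log2 difference between Pax7-465 and Pax7 Q-GL- was 0.23 ± 0.070 (SE, 95% interval 0.08 to 0.38), with a limma adjusted p of 0.28. FPKM is scaled to the annotated gene length, which the shortened construct does not have, and the part of this in the values was not tested. Tbx19 was at 118 and 124 FPKM in Pax7-465 cells, against 117 and 116 FPKM in Pax7 Q-GL- cells, a log2 difference of 0.05 ± 0.090 (95% interval -0.14 to 0.25, limma adjusted p = 0.89). Pomc was at 7303 and 8395 FPKM in Pax7-465 cells and at 8622 and 9158 FPKM in Pax7 Q-GL- cells, a log2 difference of -0.18 ± 0.14 (95% interval -0.49 to 0.13, limma adjusted p = 0.75).

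The summed FPKM was 429676 and 452714 in the Pax7-465 libraries and 468667 and 464877 in the Pax7 Q-GL- libraries. Across the genes tested, the correlation of log2 values was 0.9887 between the Pax7-465 libraries and 0.9925 between the Pax7 Q-GL- libraries, while those between the groups were 0.9845 to 0.9866. Replicate 1 of Pax7-465 had 0.9889 with replicate 2 of Pax7 Q-GL+, as high as with its own replicate. By the median absolute log2 difference, replicate 2 of Pax7-465 lay nearer both Pax7 Q-GL- libraries (0.104 and 0.108) than its own replicate (0.12). For replicate 1 of Pax7-465 the values against Pax7 Q-GL- were 0.137 and 0.129. The Pax7 Q-GL- libraries differed from each other by 0.087. Few markers of other cell types are in the table, 4 of 10 for fibroblasts, 3 of 10 for immune cells, 3 of 8 for endothelium and 2 of 9 for other pituitary hormone cells. The defining fibroblast genes Pdgfra and Pdgfrb, the macrophage receptor Csf1r and the pituitary genes Ghrhr and Lhb were listed at 0 in all 4 libraries. A listed 0 does not show absence, since 1287 genes were at 0 in all 4 libraries, among them the widely expressed Junb, an AP-1 subunit, Notch1, a receptor, and Ctsz, a lysosomal protease, which were picked after their values were seen. The summed level of the 4 fibroblast markers in the table was 0.64 and 0.888 FPKM in Pax7-465 cells, against 0.83 and 0.827 FPKM in Pax7 Q-GL- cells, and that of the 3 immune markers was 0.571 and 0.275 FPKM, against 0.50 and 0.571 FPKM. The 3 endothelial markers summed to 3.5 and 4.34 FPKM in Pax7-465 cells and to 2.93 and 2.87 FPKM in Pax7 Q-GL- cells, mostly through Vwf.

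Of the 12021 genes tested, 40 (0.333%) passed limma at a Benjamini-Hochberg adjusted p under 0.05. Of these, 6 (0.0499%) were higher and 34 (0.283%) were lower in Pax7-465 cells, a split that became 14 higher and 38 lower with median centring and 26 higher and 57 lower with quantile normalization. The 7 with a log2 change of at least 1 in size (0.0582%) were all lower in Pax7-465 cells. Among them, 2010001A14Rik met the filter only through the Pax7 Q-GL- libraries, which favours that direction. It was at 0.888 and 0.443 FPKM in Pax7-465 cells, against 2.15 and 2.60 FPKM in Pax7 Q-GL- cells. The genes lower by most were Rgs4, Pygm, Klk14, Apobec2 and Cd74, and those higher by most were Gm37494, Luzp2 and Sytl2. At an unadjusted p under 0.05 there were 1193 genes (9.92%), 299 higher (2.49%) and 894 lower (7.44%), while the median log2 change of all genes was -0.04. With 1 library left out the count fell to 9 without replicate 1 of Pax7-465, 22 without replicate 2 of Pax7-465, 5 without replicate 1 of Pax7 Q-GL- and 3 without replicate 2 of Pax7 Q-GL-. Apart from the fold threshold, 14 alternative settings were run, or 13 for low genes that the filter of 5 FPKM removed, such as Kif21b and Rnase4. Rgs4 and Agt passed in all 14, the other 38 genes lost their call in at least 1, and none of the 40 changed direction. Agt, with a log2 change of -0.83, was not among the 7 genes past the fold threshold.

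**Figure D1:**
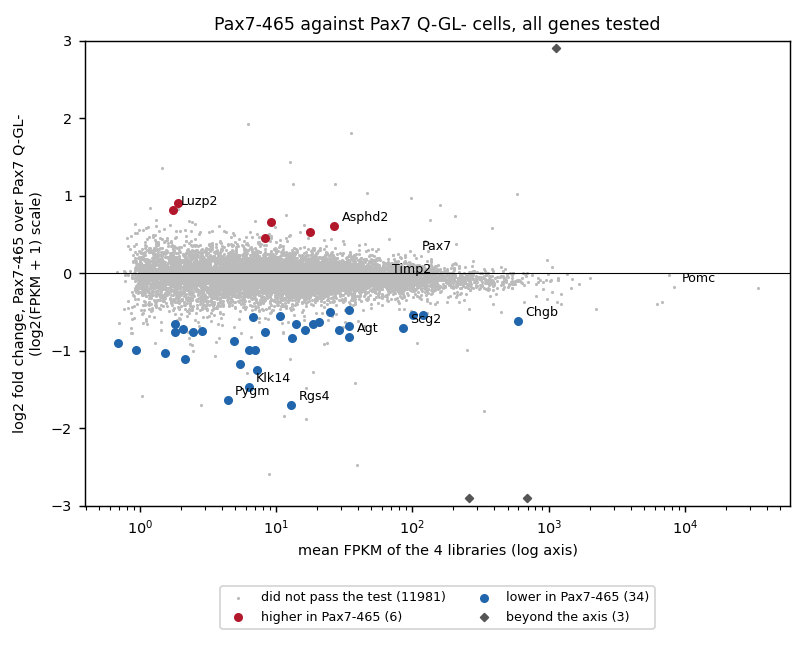
Log2 fold change of Pax7-465 over Pax7 Q-GL- (log2(FPKM + 1) scale) against mean FPKM of the 4 libraries on a log axis, 1 point per gene tested. The 34 genes lower in Pax7-465 (blue) outnumber the 6 that were higher (red), and diamonds mark 3 genes beyond the axis that did not pass the test.

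The 3 genes beyond the axis of that plot are short RNAs that did not pass the test and lie outside the rule for naming genes. Snord49b, a small nucleolar RNA, was listed at 0 in both Pax7-465 libraries, against 1247 and 1522 FPKM in Pax7 Q-GL- cells, but also at 0 in 1 of the 2 Pax7 Q-GL+ libraries, which had 1225 FPKM in the other. Snord104 was at 2286 and 2206 FPKM in Pax7-465 cells and listed at 0 in both Pax7 Q-GL- libraries, and again the 2 Pax7 Q-GL+ libraries differed, with 0 and 1576 FPKM. The limma adjusted p was 0.54 for Snord49b and 0.55 for Snord104.

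Among signalling genes, Rgs4, which encodes an activator of the GTPase of G-protein alpha subunits and so shortens receptor signals (chromosome 1, 169741476 to 169747642, minus strand, GRCm38), had the largest drop. It was at 5.68 and 5.37 FPKM in Pax7-465 cells, against 19.9 and 20.5 FPKM in Pax7 Q-GL- cells, a log2 change of -1.70 ± 0.11 (SE) with a limma adjusted p of 4.8e-05. Both Pax7-465 libraries were far below both Pax7 Q-GL- libraries. In these bulk samples, fewer cells with a transcript and less of it per cell cannot be told apart. Rgs4 was the only 1 of 20 tested regulators of G-protein signalling to pass, and the median log2 change of that list was -0.02.

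Pygm, the muscle form of glycogen phosphorylase (chromosome 19, 6384398 to 6398459, plus strand), was at 1.83 and 1.42 FPKM in Pax7-465 cells and at 6.41 and 7.96 FPKM in Pax7 Q-GL- cells (log2 change -1.64 ± 0.17, limma adjusted p = 0.0027). Apobec2, a muscle-expressed member of the cytidine deaminase family (chromosome 17, 48419230 to 48432728, minus strand), was at 3.60 and 4.21 FPKM, against 10.8 and 10.6 FPKM (log2 change -1.25 ± 0.14, limma adjusted p = 0.0032). Pygm was the only 1 of 7 tested muscle genes past the test, and the median of those 7 was -0.29. Before adjustment 3 (42.9%) of the 7 were lower and 0 higher (p under 0.05), beside 7.44% lower over all genes. Mybpc1, the slow-type myosin-binding protein C, was at 7.66 and 9.02 FPKM in Pax7-465 cells and 9.11 and 9.49 FPKM in Pax7 Q-GL- cells (log2 difference -0.14, 95% interval -0.40 to 0.12, limma adjusted p = 0.76).

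Klk14, a secreted kallikrein-family serine protease (chromosome 7, 43690417 to 43695536, plus strand), was at 3.51 and 2.27 FPKM in Pax7-465 cells, against 9.37 and 9.95 FPKM in Pax7 Q-GL- cells (log2 change -1.47 ± 0.17, limma adjusted p = 0.0052). Lipn, a member of the acid lipase family (chromosome 19, 34067357 to 34084918, plus strand), was at 3.84 and 3.96 FPKM, against 9.05 and 8.39 FPKM (log2 change -0.99 ± 0.12, limma adjusted p = 0.0074). The groups of both genes did not overlap, but the rule for naming called genes asks for this, so it adds no evidence. Cers4, a ceramide synthase, fell by 0.74 on the log2 scale, and Hilpda, a lipid droplet protein induced by hypoxia, fell by 0.47.

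Cd74, which encodes the class II invariant chain (chromosome 18, 60803847 to 60812646, plus strand), was at 2.63 and 3.28 FPKM in Pax7-465 cells, against 7.28 and 8.45 FPKM in Pax7 Q-GL- cells (log2 change -1.17 ± 0.13, limma adjusted p = 0.0032). Cd74 was the only 1 of 20 tested genes of an MHC class I presentation list to pass, and the median of that list was -0.13. The other tested members include no class II gene, so the list does not describe the class II partners of Cd74. Before adjustment 5 (25.0%) of the list were lower and 0 higher (p under 0.05), beside 7.44% lower over all genes. Agt, which encodes angiotensinogen, was at 23.6 and 25.4 FPKM, against 45.2 and 43.3 FPKM (log2 change -0.83 ± 0.082, limma adjusted p = 0.0027). Galns, a lysosomal sulfatase, fell by 0.84 on the log2 scale, to 9.40 and 8.88 FPKM, against 16.6 and 17.6 FPKM in Pax7 Q-GL- cells.

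The genes of peptide hormone processing and storage gave 4 calls, all lower, as were 34 of the 40 calls over all genes. Pcsk2 (chromosome 2, 143546155 to 143816285, plus strand) was at 20.8 and 22 FPKM in Pax7-465 cells, against 35.8 and 36.6 FPKM in Pax7 Q-GL- cells (log2 change -0.73 ± 0.081, limma adjusted p = 0.0032). Pam, whose product amidates the C-termini of peptides, was at 78.9 and 85.6 FPKM, against 117 and 123 FPKM (log2 change -0.54 ± 0.088, limma adjusted p = 0.034). Pcsk2 and Pam were 2 of 17 tested prohormone processing genes, with a median of -0.13. Before adjustment 5 (29.4%) of the 17 were lower and 0 higher (p under 0.05). Over all genes, 0.283% were called lower and 7.44% were lower before adjustment. Pcsk1, the convertase that corticotropes use, was at 318 and 348 FPKM in Pax7-465 cells and 385 and 391 FPKM in Pax7 Q-GL- cells (log2 difference -0.22, 95% interval -0.44 to -0.0045, limma adjusted p = 0.50).

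Secretogranin II and chromogranin B, encoded by Scg2 and Chgb, are acidic proteins that pack the contents of dense-core granules. Scg2 was at 62.3 and 67.5 FPKM in Pax7-465 cells, against 107 and 106 FPKM in Pax7 Q-GL- cells (log2 change -0.71 ± 0.094, limma adjusted p = 0.0093). Chgb was at 460 and 485 FPKM, against 694 and 759 FPKM (log2 change -0.62 ± 0.10, limma adjusted p = 0.035). They were 2 of 9 tested granins, beside 0.283% called lower over all genes, and the median of that list, -0.03, was near that of all genes. Among 35 exocytosis genes, limma called 0 lower and 1 higher, with 2 higher and 3 lower (8.57%) before adjustment (p under 0.05). The called gene was Sytl2, a Rab27 effector of granule docking, with 11.8 and 11.1 FPKM in Pax7-465 cells and 6.80 and 6.88 FPKM in Pax7 Q-GL- cells (log2 change 0.66 ± 0.094, limma adjusted p = 0.014).

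Of 5 tested melanotrope markers, among which the introduced Pax7 itself is counted, Pcsk2 was lower and the other 4 did not pass. Before adjustment 2 were higher and 2 lower at p under 0.05, beside 2.49% higher and 7.44% lower over all genes, and the median was -0.18. Oacyl, an acyltransferase-like gene, was at 7.12 and 7.65 FPKM in Pax7-465 cells and 11.1 and 10.6 FPKM in Pax7 Q-GL- cells (log2 difference -0.50, 95% interval -0.73 to -0.27, limma adjusted p = 0.090), and Megf11, a membrane protein with EGF-like repeats, was at 99.3 and 111 FPKM, against 80.3 and 92.2 FPKM (log2 difference 0.28, 95% interval 0.08 to 0.49, limma adjusted p = 0.33). Of 6 tested corticotrope markers, limma called 0, with 1 higher and 1 lower before adjustment (p under 0.05) and a median of -0.03. The glucocorticoid receptor gene Nr3c1 was at 29.5 and 29.9 FPKM, against 27.1 and 31.6 FPKM, and Neurod1, a bHLH factor of corticotropes, was at 14.1 and 14.8 FPKM, against 11.5 and 11.6 FPKM (log2 difference 0.30, 95% interval 0.13 to 0.47, limma adjusted p = 0.20). Nr4a1, an orphan receptor gene induced by CRH, was at 2.30 and 2.90 FPKM, against 2.58 and 2.99 FPKM, and the cytokine receptor gene Lifr was at 5.21 and 5.71 FPKM, against 5.98 and 6.36 FPKM. Lmcd1, a LIM and cysteine-rich domain protein, and Tfeb, a regulator of lysosomal genes, had log2 differences of -0.29 and -0.14 and did not pass (limma adjusted p = 0.33 and 0.66). Pde2a, a cyclic nucleotide phosphodiesterase, was listed at 0 in all 4 libraries, which does not show that it was not expressed.

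Of the 6 genes higher in Pax7-465 cells, Luzp2, a leucine zipper protein (chromosome 7, 54835497 to 55268885, plus strand), was at 2.54 and 2.50 FPKM, against 0.960 and 1.05 FPKM in Pax7 Q-GL- cells (log2 change 0.81 ± 0.12, limma adjusted p = 0.017). Asphd2, an aspartate beta-hydroxylase domain gene, was at 31.3 and 33.6 FPKM, against 19.9 and 22.1 FPKM (log2 change 0.60 ± 0.089, limma adjusted p = 0.017). Eln, which encodes elastin, was at 21.2 and 20.8 FPKM, against 12.9 and 15.6 FPKM (log2 change 0.54 ± 0.094, limma adjusted p = 0.041), and was the only 1 of 20 tested matrix and integrin genes to pass. The last pair were Mb21d2, at 9.83 and 9.82 FPKM, against 6.96 and 6.80 FPKM, and the predicted gene Gm37494, at 3.07 and 2.50 FPKM, against 0.949 and 1.10 FPKM. Luzp2 and Gm37494 reached 1 FPKM in only 1 Pax7 Q-GL- library. They met the filter only with the help of the Pax7-465 libraries, so their direction is not independent of it. For Sytl2, Mb21d2 and Gm37494, Pax7 Q-GL- had the lowest mean of the 5 groups in the fit. Means in Pax7 Q-GL+, Pax7 Q+GL+ and Pax3 cells were 14.75, 7.72 and 12.8 FPKM for Sytl2 and 10.6, 8.12 and 9.50 FPKM for Mb21d2. Those of Gm37494 were 3.69, 2.57 and 2.61 FPKM. None of these genes passed against Pax7 Q-GL+, and only Sytl2 did against Pax7 Q+GL+ (log2 change 0.51, limma adjusted p = 0.027).

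The remaining called genes were lower in Pax7-465 cells with log2 changes between -1.11 and -0.50. Neuronal and transport genes among them were Kif21b, a kinesin motor (1.08 and 0.911 FPKM, against 3.42 and 3.17 FPKM), Gap43, a growth cone protein (13.1 and 15.3 FPKM, against 22.7 and 22.9 FPKM), Abcc8, the sulfonylurea receptor subunit of ATP-sensitive potassium channels (5.41 and 6.34 FPKM, against 11.2 and 10.1 FPKM), and Gosr1, a Golgi SNARE (8.58 and 8.26 FPKM, against 12.2 and 13.3 FPKM). Of signalling genes, Fzd2, a Wnt receptor, was the only 1 of 17 tested Wnt pathway genes to pass, with 1.28 and 1.10 FPKM, against 2.52 and 2.37 FPKM, and Boc, a Hedgehog co-receptor, had 1.92 and 1.86 FPKM, against 3.65 and 4.03 FPKM. Dusp26, a phosphatase, fell by 0.99 on the log2 scale. The others were Arhgap29, Tmem132b, Rnase4, Gsdma2, Hoga1, Lrrc17, Fam135b, Tcp11l2, Zcchc12, 2010001A14Rik, 2210407C18Rik, Gm10247 and Gm13373. Of these, Rnase4, Gm10247 and 2010001A14Rik were below 1 FPKM in both Pax7-465 libraries. They met the filter only through the Pax7 Q-GL- libraries, so their direction is not independent of it. Kif21b and Hoga1 reached 1 FPKM in only 1 Pax7-465 library and met it only with the help of the Pax7 Q-GL- libraries. Rnase4 was at 0.241 and 0.119 FPKM in Pax7-465 cells, against 1.17 and 1.24 FPKM in Pax7 Q-GL- cells. Gsdma2 belongs to a cluster of closely related genes and Rnase4 shares its locus with another ribonuclease gene, and whether reads were split between these was not tested. In all, 14 of the 40 genes lie outside the naming rule and are named because they passed.

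**Figure D2:**
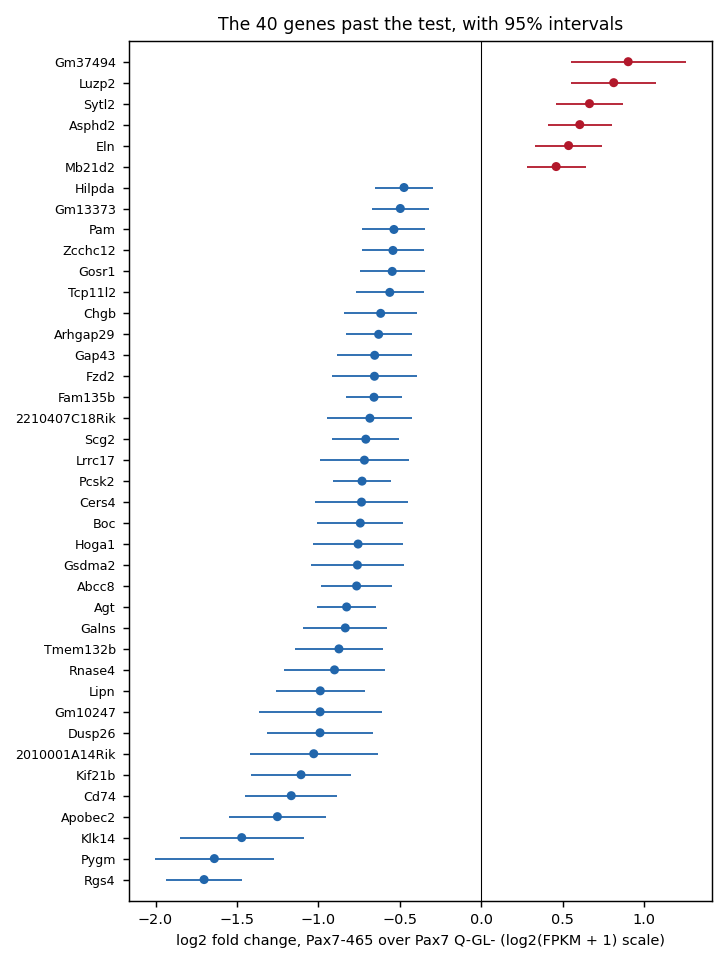
Log2 fold change of Pax7-465 over Pax7 Q-GL- with 95% intervals for the 40 genes past the test, lower genes in blue and higher genes in red. Values run from -1.70 for Rgs4 to 0.90 for Gm37494.

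Among 15 genes that earlier results of these libraries gave as sensitive to the GL pair, 9 were lower in Pax7-465 cells, 0 were higher and 6 did not pass, with a median of -0.68. Over all genes tested, 0.283% were called lower. The 15 genes were picked on their values in the same Pax7 Q-GL- and GL+ libraries. All but Cd74 had a higher mean in Pax7 Q-GL- than in both GL+ groups. Cd74 had a mean of 7.87 FPKM in Pax7 Q-GL- cells and of 8.76 FPKM in Pax7 Q+GL+ cells. So neither the count of lower genes and its direction nor a Pax7-465 level above the GL+ levels is independent evidence. To place the levels, Pax7-465 was also compared with Pax7 Q-GL+ and Pax7 Q+GL+. Against Pax7 Q-GL+, 58 genes (0.482%) passed, 34 higher (0.283%) and 24 lower (0.200%) in Pax7-465. Against Pax7 Q+GL+, 126 genes (1.05%) passed, 83 higher (0.690%) and 43 lower (0.358%). All 3 comparisons share the Pax7-465 libraries.

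The genes differed in where the Pax7-465 level lay. Rgs4, with 5.68 and 5.37 FPKM in Pax7-465 cells, was below Pax7 Q-GL- but above the 1.81 and 1.71 FPKM of Pax7 Q-GL+ cells (log2 change 1.24, limma adjusted p = 7.2e-04) and the 2.15 and 2.03 FPKM of Pax7 Q+GL+ cells (log2 change 1.08, limma adjusted p = 5.1e-04). Lipn showed the same order, since Pax7 Q-GL+ cells had 1.14 and 0.950 FPKM and Pax7 Q+GL+ cells had 0.434 and 0.503 FPKM (log2 changes 1.26 and 1.74, limma adjusted p = 9.7e-04 and 8.6e-05). Klk14 had 0.759 and 1.25 FPKM in Pax7 Q-GL+ cells and 0.601 and 0.905 FPKM in Pax7 Q+GL+ cells, and Pax7-465 was above both (log2 changes 0.95 and 1.14, limma adjusted p = 0.042 and 0.011). Its call against Pax7 Q-GL+ was lost in 8 of 14 alternative settings, with limma adjusted p from 0.051 to 0.29, 3 of them without replicate 1 of Pax7-465 or either Pax7 Q-GL+ library. That against Pax7 Q+GL+ was lost without replicate 1 of Pax7-465 or replicate 1 of Pax7 Q+GL+ (0.079 and 0.092 as limma adjusted p). Pcsk2 in Pax7-465 cells was above the 11.7 and 12.5 FPKM of Pax7 Q+GL+ cells (log2 change 0.77, limma adjusted p = 7.3e-04), and the difference from the 16.2 and 15.5 FPKM of Pax7 Q-GL+ cells did not pass (log2 difference 0.41, limma adjusted p = 0.055).

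For Pygm, Scg2 and Pam no difference between Pax7-465 and either GL+ isoform passed the test. Pygm was at 1.05 and 1.65 FPKM in Pax7 Q-GL+ cells and at 1.06 and 1.58 FPKM in Pax7 Q+GL+ cells (log2 differences 0.17 and 0.18, limma adjusted p = 0.84 and 0.73). Scg2 was at 65.2 and 60.5 FPKM in Pax7 Q-GL+ cells and at 65.8 and 71.3 FPKM in Pax7 Q+GL+ cells (log2 differences 0.04 and -0.08, limma adjusted p = 0.94 and 0.81). Pam was at 72.4 and 67.0 FPKM and at 76.9 and 80.9 FPKM in these groups (log2 differences 0.24 and 0.06). Chgb likewise passed against neither, with log2 differences of 0.36 and -0.15.

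Timp2, an inhibitor of matrix metalloproteinases, and Mybpc1 took the opposite place. Timp2 was at 58.8 and 63.8 FPKM in Pax7-465 cells and at 65.8 and 63.1 FPKM in Pax7 Q-GL- cells, with overlapping groups (log2 difference -0.07, 95% interval -0.24 to 0.09, limma adjusted p = 0.82). It was above the 34.2 and 33.7 FPKM of Pax7 Q-GL+ cells and the 29.2 and 30.3 FPKM of Pax7 Q+GL+ cells (log2 changes 0.83 and 1.02, limma adjusted p = 9.4e-04 and 8.6e-05). Mybpc1 in Pax7-465 cells was above the 3.34 and 2.66 FPKM of Pax7 Q-GL+ cells and the 2.16 and 2.41 FPKM of Pax7 Q+GL+ cells (log2 changes 1.23 and 1.51, limma adjusted p = 9.7e-04 and 1.1e-04). Oacyl was higher than in both GL+ groups (log2 changes 0.68 and 1.30, limma adjusted p = 0.023 and 1.2e-04), and Serpine2, a serine protease inhibitor with 33.6 and 32.4 FPKM in Pax7-465 cells and 40.3 and 45.9 FPKM in Pax7 Q-GL- cells, was higher than in Pax7 Q-GL+ cells (log2 change 1.13, limma adjusted p = 2.5e-04). For Serpine2 the difference from Pax7 Q+GL+ did not pass (log2 difference 0.38, limma adjusted p = 0.056). Nor did its difference from Pax7 Q-GL- (log2 difference -0.37, 95% interval -0.55 to -0.19, limma adjusted p = 0.12). The Oacyl call against Pax7 Q-GL+ was lost when any 1 of the 4 libraries compared was left out (limma adjusted p from 0.087 to 0.15). Whether the place of these genes differs from that of Pygm or Scg2 was not tested.

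**Figure D3:**
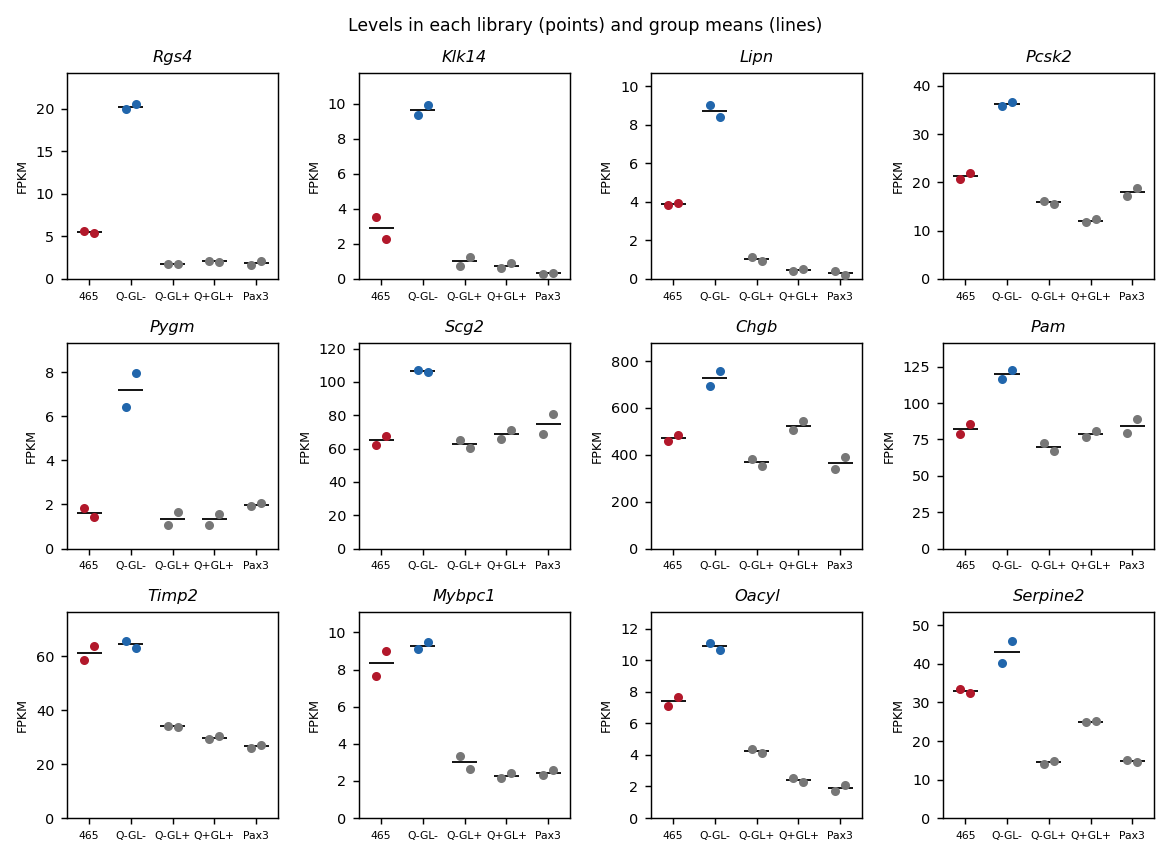
FPKM of 12 genes in the 2 libraries of each group (points) with the group mean (line), Pax7-465 in red, Pax7 Q-GL- in blue and the other groups in grey, each axis from 0. Rgs4, Klk14 and Lipn in Pax7-465 cells lie between the Pax7 Q-GL- and GL+ levels, Pygm and Scg2 lie near the GL+ levels, and Timp2 and Mybpc1 lie near the Pax7 Q-GL- level.

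Cd74 gave a different order, since it was at 8.13 and 9.38 FPKM in Pax7 Q+GL+ cells and Pax7-465 was lower than these (log2 change -1.31, limma adjusted p = 5.1e-04) but higher than the 1.09 and 1.13 FPKM of Pax7 Q-GL+ cells (log2 change 0.90, limma adjusted p = 0.016). Gap43 was lower in Pax7-465 than in Pax7 Q+GL+ cells too, which had 24.2 and 23.6 FPKM (log2 change -0.72, limma adjusted p = 0.0088). Luzp2 and Asphd2 were higher in Pax7-465 than in both GL+ isoforms, with log2 changes of 0.75 and 0.73 for Luzp2 (limma adjusted p = 0.023 and 0.016) and of 0.53 and 0.56 for Asphd2 (limma adjusted p = 0.029 and 0.014). These calls of Luzp2 and Asphd2 were lost when any 1 library of the groups compared was left out, with limma adjusted p from 0.052 to 0.24. The Cd74 call against Pax7 Q-GL+ was lost without replicate 2 of Pax7-465 or either Pax7 Q-GL+ library (limma adjusted p from 0.10 to 0.11), and the Gap43 call against Pax7 Q+GL+ without replicate 1 of Pax7-465 or either Pax7 Q+GL+ library (from 0.059 to 0.075).

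**Figure D4:**
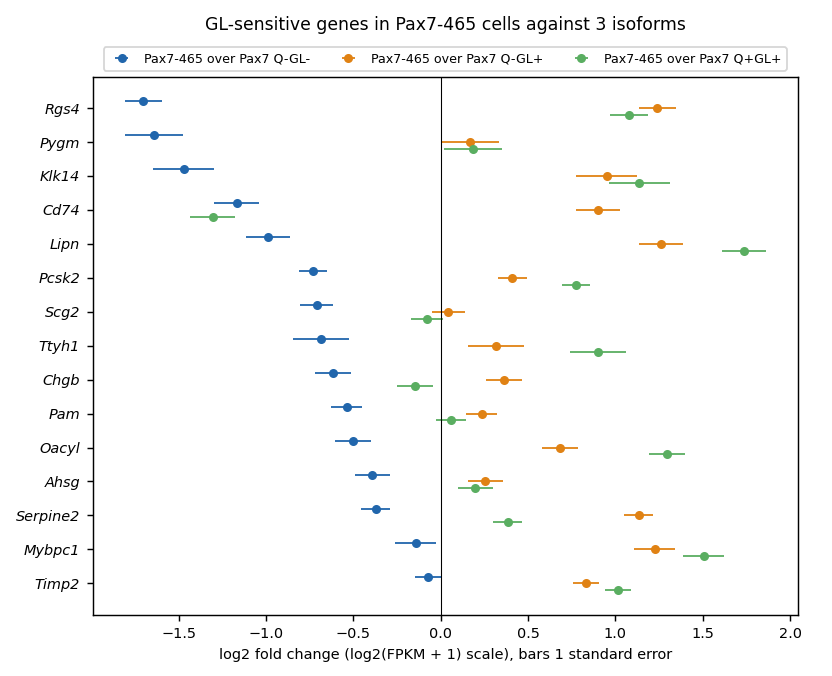
Log2 fold change (± 1 SE) of Pax7-465 over Pax7 Q-GL-, over Pax7 Q-GL+ and over Pax7 Q+GL+ for the 15 GL-sensitive genes, ordered by the first. The comparisons share the Pax7-465 libraries. All 15 lie below 0 against Pax7 Q-GL-, a direction favoured by their choice on the same libraries. All but Cd74 had a higher mean in Pax7 Q-GL- than in both GL+ groups. Pygm, Scg2, Pam, Chgb and Ahsg passed the test against neither GL+ isoform, which does not show equal levels.

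Promoter sequences are shown for 3 of the genes that fell, Rgs4 as the gene lowered most, Lipn as a gene with homeodomain core sites and Pcsk2 as the melanotrope convertase. They are RefSeq sequences of the 250 bases before the annotated start, build GRCm38.p6, written 5′ to 3′ on the strand of the gene, with capitals marking TAAT or ATTA, the core site of homeodomain proteins.

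Rgs4 promoter, chr1:169747643-169747892, minus strand: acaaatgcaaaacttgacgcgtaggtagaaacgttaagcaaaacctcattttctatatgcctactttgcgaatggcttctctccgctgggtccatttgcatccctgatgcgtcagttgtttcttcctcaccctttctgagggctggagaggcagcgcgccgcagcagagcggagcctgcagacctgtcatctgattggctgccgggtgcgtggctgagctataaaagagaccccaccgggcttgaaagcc

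Lipn promoter, chr19:34067108-34067357, plus strand: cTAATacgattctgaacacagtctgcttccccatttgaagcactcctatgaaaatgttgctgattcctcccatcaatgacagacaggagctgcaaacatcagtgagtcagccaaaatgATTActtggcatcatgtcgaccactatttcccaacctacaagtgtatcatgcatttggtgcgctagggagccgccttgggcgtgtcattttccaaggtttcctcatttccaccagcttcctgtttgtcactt

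Pcsk2 promoter, chr2:143545883-143546132, plus strand: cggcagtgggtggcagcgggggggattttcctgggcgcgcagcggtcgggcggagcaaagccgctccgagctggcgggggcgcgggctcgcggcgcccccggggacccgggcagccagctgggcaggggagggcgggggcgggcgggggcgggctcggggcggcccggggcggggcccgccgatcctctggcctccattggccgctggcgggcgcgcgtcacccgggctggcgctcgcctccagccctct

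The Lipn window holds 2 such sites, 1 near its upstream end, and those of Rgs4 and Pcsk2 hold 0. The RefSeq start lies 22 bases upstream of the start in the deposited table for Pcsk2, 1 base from it for Lipn and at it for Rgs4. The Pcsk2 window is 82.4% G and C, beside 53.6% for Rgs4 and 46.0% for Lipn. A promoter of this kind was matched for 26 of the 40 called genes. For 18 of the 26, the last part of the 50 bases after the RefSeq start was found in a transcript of the gene. Rgs4 and Lipn were among the 18, and Pcsk2 was not. TAAT, searched on both strands, was in 8 of the 26 (30.8%) and in 54.9% of the 32851 promoters of the same table, which are not limited to genes tested. Among the 8, the RefSeq start lay 2583 bases from the deposited start for 2210407C18Rik and 2076 bases from it for Gm13373. The paired-type homeodomain dimer, TAAT and ATTA with 2 bases between them, was in 0 of the 26 and in 0.384% of all promoters, the letters GTCACGC, like the core of a paired domain site, in 0 and 1.78%, and the T-box letters AGGTGTGA in 0 and 1.12%. These windows hold no distal enhancer, and a window without these letters says nothing of the factors.

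Other pathway lists had few or no calls. Limma called 0 of 24 pituitary transcription factor genes (1 higher and 2 lower before adjustment, at p under 0.05, median -0.0023), 0 of 33 cofactor and chromatin remodeler genes (1 higher and 0 lower, median 0.04), 0 of 25 cyclic AMP signalling genes (0 higher and 4 lower, median -0.11) and 0 of 40 ion channel genes (3 higher and 5 lower, median -0.04). Ttyh1, a chloride channel family member in the ion channel list, was at 31.3 and 44.4 FPKM in Pax7-465 cells and 58.7 and 62.3 FPKM in Pax7 Q-GL- cells (log2 difference -0.68, 95% interval -1.04 to -0.33, limma adjusted p = 0.15). Ahsg, which encodes the secreted protein fetuin-A, was at 322 and 352 FPKM, against 447 and 437 FPKM (log2 difference -0.39, limma adjusted p = 0.19). For cell cycle genes limma called 0 of 47 (before adjustment 3 higher and 0 lower, median 0.01). Over all genes tested, 2.49% were higher and 7.44% lower before adjustment.

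**Figure D5:**
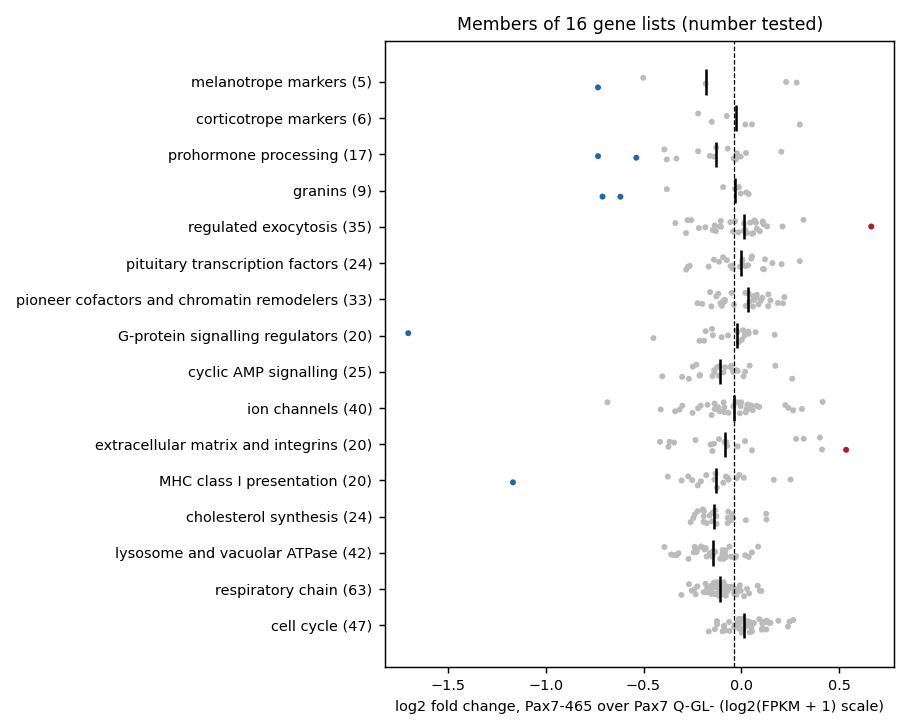
Log2 fold change of Pax7-465 over Pax7 Q-GL- for the tested members of 16 gene lists, called members in blue (lower) or red (higher), with list medians (solid) and the all-gene median of -0.04 (dashed). Called members are single genes or pairs within a list.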

How the data were processed

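RNA-Seq of pooled AtT-20 cells was strand-specific and paired-end. The deposited FPKM values were made by the authors with Trimmomatic, TopHat2 (mm10, Ensembl) and HOMER. For RNA-Seq, tool versions are not given in the sources used here. The table holds no read counts, so depth is unknown and no count model was run. A further 4 columns of per-sample values were not used. FPKM was taken as log2(FPKM + 1), and genes reaching 1 FPKM in 2 or more of the 4 libraries entered a limma-trend fit with the robust option over 10 libraries, with 1 coefficient per group (R 4.3.3, limma 3.58.1, statmod 1.5.0). The 2 NoTag libraries were left out of it. The steps were tested on simulated data. Fold changes understate low genes.

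Members, lists and tests were chosen with earlier results of these data known. Named were Pax7, Tbx19 and Pomc, all members of 4 lists (melanotrope, corticotrope, GL-sensitive, and loci drawn up from the study with Tfeb added), up to 15 called genes per direction with the largest change, non-overlapping groups and a mean of 1 FPKM or more in the higher one, and up to 4 called members of each other list. Alternatives were a pseudocount of 0.1, other filters, quantile normalization, median centring, limma without trend or robust option, 12 libraries, only the groups compared, a replicate block, a fold threshold and each library left out. Promoters are from RefSeq. Figures were drawn with Python 3.11.15 and matplotlib 3.10.9.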

Additional observations from a re-analysis of the deposited data

How the results depend on the processing

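Against Pax7 Q-GL-, the 40 calls became 83 with quantile normalization (26 higher, 57 lower), 26 without the robust option (3 higher, 23 lower), 65 with the 12 libraries (12 higher, 53 lower) and 7 at a log2 change of at least 1. Median centring gave 52 (14 higher, 38 lower), so the share of higher calls moved. Leaving out 1 library gave 3 to 22. Against Pax7 Q-GL+, the 58 calls became 158 with quantile normalization, 103 with median centring, 109 with the 12 libraries, 9 at a log2 change of at least 1 and 9 to 19 with 1 library left out. Against Pax7 Q+GL+, the 126 calls became 281 with quantile normalization, 83 in a fit of only the groups compared, 21 at a log2 change of at least 1 and 30 to 42 with 1 library left out. A fit without 1 library assumes that the lone library of its group varies like the other groups. The cause of these shifts was not tested.

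Directions changed for a few uncalled genes near 0. Against Pax7 Q-GL-, the log2 difference was -0.19 to 0.045 for Nr4a1 with 1 library left out (0.0038 without replicate 2 of Pax7 Q-GL-), and -0.085 to 0.125 for Nr3c1. That of Pomc was 0 with quantile normalization, which is not a change of direction. Against Pax7 Q-GL+, it was -0.013 to 0.10 for Scg2 with 1 library left out (-0.0084 without replicate 2 of Pax7 Q-GL+), and -0.022 to 0.35 for Pygm. Pax7 passed against Pax7 Q-GL- with quantile normalization (limma adjusted p = 0.030). Ttyh1 passed without replicate 2 of Pax7-465 (limma adjusted p = 0.037).

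Replicate numbers were not taken to pair the libraries, since the differences between replicates of Pax7-465 correlated across genes at 0.0345 with those of Pax7 Q-GL-, -0.163 with Pax7 Q-GL+, 0.113 with Pax7 Q+GL+ and 0.203 with Pax3. With the replicate block the counts were 40 against Pax7 Q-GL-, of which 36 were among the 40 calls without the block, 58 against Pax7 Q-GL+ and 128 against Pax7 Q+GL+. A block with the Pax7 Q-GL+ numbers crossed, chosen after seeing the data, gave 126 calls against Pax7 Q-GL+. With 2 libraries per group, small changes are hard to call, and differences that did not pass are not shown to be absent.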

Other observations

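In Pax7-465 against Pax7 Q-GL- cells, 60.9% of all genes tested had a log2 difference below 0, and 7.44% were lower before adjustment at p under 0.05. Of 42 tested genes of the lysosome and the vacuolar ATPase, 38 (90.5%) had a log2 difference below 0, 0 passed, and before adjustment 11 (26.2%) were lower and 0 higher, with a median of -0.15 beside -0.04 for all genes. Ctsl, a lysosomal protease, was at 117 and 136 FPKM in Pax7-465 cells and 165 and 166 FPKM in Pax7 Q-GL- cells, and Hexa, a subunit of beta-hexosaminidase, was at 64.7 and 73.6 FPKM, against 88.2 and 89.4 FPKM. Both were picked after their values were seen. Of 63 respiratory chain genes, 57 (90.5%) were below 0, 0 passed, and before adjustment 4 (6.35%), near the share over all genes, were lower and 0 higher (median -0.11). Of 24 cholesterol synthesis genes, 21 (87.5%) were below 0, 0 passed, and before adjustment 5 (20.8%) were lower and 0 higher (median -0.14). The summed FPKM was also lower in the Pax7-465 libraries, 429676 and 452714, against 468667 and 464877 in the Pax7 Q-GL- libraries, and its part in these values was not tested.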
